A study of Homo sapiens with 12 samples.

Results

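The cytosolic ribosome is built from ribosomal RNA and a set of ribosomal proteins, one group in the small subunit (the RPS proteins), which decodes the mRNA, and one in the large subunit (the RPL proteins), which joins the amino acids. The genes of the cytosolic ribosomal proteins were taken by their symbols: RPL or RPS followed by a number and an optional A or X, together with RPLP0, RPLP1, RPLP2 and RPSA. Of 77 genes that fit these symbols, 57 had a probe set annotated with that symbol alone, 21 of the small and 36 of the large subunit, out of 18418 symbols measured in this way. The 20 genes without such a probe set, for example RPLP0, RPSA, RPS27A, RPL15 and RPS26, were not counted as members. Symbols alone set the members, and for 21 of the genes the brightest of several probe sets was taken.

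Ribosomal protein genes are among the most strongly transcribed genes of a dividing cell, and their products are needed in near equal numbers, so their mRNAs are usually controlled together. Their transcripts carry a terminal oligopyrimidine (TOP) motif, a run of C and T that begins with a C at the very first base, through which the mTORC1 kinase and the RNA-binding protein LARP1 control how well they are translated and how long they last. Synthesis of ribosomal RNA by RNA polymerase I and its processing by nucleolar biogenesis factors, many of them targets of MYC, run beside them and are activated when cells prepare to grow.

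T47D-MTVL is a human breast cancer line derived from T47D, with a single integrated copy of a luciferase reporter driven by the MMTV promoter. The cells expressed their own progesterone receptor and received either a control siRNA (siCt) or 1 siRNA against CHD8 (siCHD8), a chromatin remodelling ATPase. All were kept without serum for 48 h and then given 10 nM R5020, a synthetic progestin, or its vehicle ethanol (EtOH) for 6 h. The 4 conditions, siCt EtOH, siCt R5020, siCHD8 EtOH and siCHD8 R5020, had 3 arrays each, labelled as biological replicates. Values are log2 intensities of Affymetrix Human Gene ST probe sets, so a difference of 1 is a doubling, and differences were tested with limma over all 21214 probe sets that carry a gene symbol, at a Benjamini-Hochberg adjusted p of 0.05.

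The arrays of a condition correlated at 0.989 to 0.996 over all probe sets. CHD8 was lower in each siCHD8 array than in each siCt array of the same treatment, by 0.58 with vehicle and 0.62 with R5020 on the log2 scale, but its adjusted p passed 0.05 in neither. Luminal markers were bright (KRT19 11.1, KRT8 10.9, GATA3 10.3), whereas PTPRC of blood cells, PECAM1 of endothelium and VIM of mesenchyme had means of 1.16, 1.90 and 2.24. Of the 10 luminal markers 5 fell with R5020 in siCt and 6 in siCHD8, against 6.00% and 5.43% of all probe sets. The part of these markers in the results below was not tested. In bulk RNA, fewer cells of one kind and less RNA per cell cannot be told apart. The array siCt EtOH replicate 3 stood apart from the others for the ribosomal protein genes: of the 12 arrays it held the highest value for 25 of the 57 and the lowest for 6, where an even split would give 4.75. The array siCHD8 EtOH replicate 3 held the lowest value for 21. Values without one of these arrays are given beside the differences of named members that moved most.

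The start sites of the ribosomal protein genes show what the group shares in sequence. RefSeq promoter windows (assembly GRCh38.p14, 250 bases before to 50 after each start) were found for 48 of the 57 genes. A TOP-like tract, here a C within 5 bases of the annotated start followed by at least 4 bases that are C or T, was present in at least 1 window of 43 of the 48 (89.6%), against 25.2% of all 27305 genes with a window. Of the other mRNAs of translation known to carry a TOP, such as those of the elongation factors, 10 of 11 had it, while the share was 19.4% for ribosome biogenesis factors and 22.7% for the mitochondrial ribosomal proteins. The start sites of members to which the results below return are printed from 10 bases upstream, 30 bases in all, with the tract in capitals where there is one.
RPS24: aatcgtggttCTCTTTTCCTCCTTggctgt
RPL29: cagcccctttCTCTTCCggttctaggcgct
RPS27: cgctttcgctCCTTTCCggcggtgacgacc
RPL31: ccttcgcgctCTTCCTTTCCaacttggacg
RPL13: gggccgcttcCTTTCCgctcggctgttttc
RPL38: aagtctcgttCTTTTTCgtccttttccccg
RPLP1: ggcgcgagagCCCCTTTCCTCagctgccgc
RPS15: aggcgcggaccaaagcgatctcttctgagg
RPS29: agcgcgcagctggcagcggtggttgtttct

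These windows lie at chr10:78033853-78033882 (RPS24), chr3:51995876-51995905 (RPL29, minus strand), chr1:153990752-153990781 (RPS27), chr2:101002279-101002308 (RPL31), chr16:89560672-89560701 (RPL13), chr17:74203668-74203697 (RPL38), chr15:69452808-69452837 (RPLP1), chr19:1438386-1438415 (RPS15) and chr14:49598691-49598720 (RPS29, minus strand). Each spans the annotated first base of the gene. A window with a tract was printed wherever the gene had such a window, so the tracts shown follow from that choice. By window, 47 of the 58 windows of the members held a tract (81.0%), against 21.1% of all windows. In 7 of the 9 printed a pyrimidine tract opens at the start, with 6 to 14 letters. RPS15 and RPS29 had no tract in any window. RPL17, RPL27 and RPS4X were the other matched members without it. Other motifs were less particular to the group over the whole window, each searched on both strands: the ETS core CCGGAAG was found in 37.5% of the 48 genes and 12.2% of all genes, the GC box GGGCGG in 62.5% and 48.3%, the E box CACGTG bound by MYC in 6.25% and 8.77%, and TATAAA in 8.33% and 14.0%. Among the biogenesis factors 48.4% held the E box and 41.9% the ETS core, which 43.9% of the mitochondrial ribosomal proteins held too. A match describes letters in these windows and not the binding of a factor.

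The means of the members' probe sets over the 12 arrays ran from 3.66 to 11.8, with only RPL22, RPS29 and RPL17 below the median of all probe sets (4.59). Each probe set has its own probes, so these values do not rank the genes by mRNA level. Many of these genes have processed pseudogenes of nearly the same sequence, which a probe set could also measure.

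The first comparison asks how the ribosomal protein genes responded to the progestin. With the control siRNA, R5020 left them near their vehicle levels. None of the 57 rose at an adjusted p under 0.05 and 1 fell (RPS29), where 8.10% of all probe sets rose and 6.00% fell. At an unadjusted p under 0.05, 1 was higher and 3 were lower, against 13.3% and 14.6% of all probe sets. The median log2 change was -0.02 (-0.05 over all probe sets), with 26 members above 0 and 31 below. With 1 array left out it ran from -0.06 to 0.000493, with 22 to 29 members above 0.

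In cells with the CHD8 siRNA, R5020 raised RPS24 alone among the 57 and lowered none, against 6.04% and 5.43% of all probe sets. The unadjusted test gave 6 members higher and 1 lower, against 10.9% and 11.5%. The median change was 0.04 (-0.02 over all), with 38 of the 57 above 0. With 1 array left out it ran from 0.01 (32 above 0, without siCHD8 EtOH replicate 3) to 0.10 (45 above 0, without siCHD8 EtOH replicate 1).

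RPS24, a protein of the small subunit needed for the processing of 18S ribosomal RNA, had log2 intensities of 7.77, 8.10 and 8.03 in siCt EtOH and 8.29, 8.33 and 8.13 in siCt R5020. In siCHD8 EtOH it was at 8.09, 7.70 and 7.74, and in siCHD8 R5020 at 8.78, 8.49 and 8.67. All 3 siCHD8 R5020 arrays lay above the other 9. The rise with R5020 in siCHD8 was 0.80 (SE 0.13, 1.74-fold, adjusted p = 0.000747 from limma), and the change in siCt was 0.28 (SE 0.13, adjusted p = 0.184). The difference between these responses was 0.52 (95% interval 0.12 to 0.92), with an unadjusted p of 0.0148 in limma that did not pass adjustment (0.492), so the responses of RPS24 were not shown to differ. Of the starts printed above, that of RPS24 has the longest pyrimidine tract, and whether tract length goes with the response was not tested.

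RPS29, a small zinc-binding protein of the small subunit, was measured by 1 of the 3 dim probe sets. It read 4.36, 4.29 and 4.55 in siCt EtOH and 3.96, 4.17 and 3.98 in siCt R5020, without overlap. The fall with R5020 was 0.36 on the log2 scale (SE 0.11), with an adjusted p of 0.0409 in limma. The siCHD8 arrays read 4.13, 4.01 and 3.86 with vehicle and 3.92, 3.95 and 4.01 with R5020, which overlap, and the change was -0.04 (SE 0.11). The difference between these responses of RPS29 was 0.32 (SE 0.16, adjusted p = 0.541 from limma), so they were not shown to differ. Without siCt EtOH replicate 3 the change in siCt was -0.29 and was no longer called.

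RPL10, which sits near the catalytic centre of the large subunit, shows how far 1 array can carry a value. Its log2 intensities were 8.19, 8.35 and 6.18 in siCt EtOH, and 8.59, 8.33 and 8.45 in siCt R5020. In siCHD8 they were 8.13, 7.82 and 8.14 with vehicle and 8.34, 8.35 and 8.32 with R5020. The third siCt EtOH array lay far below all others, and the change with R5020 in siCt, 0.88 (SE 0.38, adjusted p = 0.146 from limma), was 0.18 without it. RPS13, a small subunit protein, was lowest on the same array, at 10.07 against 10.92 and 11.07 on the other siCt EtOH arrays. Its change in siCt was 0.36, and 0.05 without that array.

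Other genes of ribosome production responded to the same treatment, as the plot of hormone changes by gene group shows. Of 37 ribosome biogenesis factors, 21 rose in siCt and 14 in siCHD8, with none lower and medians of 0.44 and 0.26. DKC1, the pseudouridine synthase of the H/ACA particles, rose by 0.78 and 0.48, NOP58, a core protein of the C/D particles, by 0.86 and 0.73, and BOP1, a factor of large subunit maturation, by 0.63 and 0.59. Of 24 translation initiation factors, 6 rose and 1 fell in siCt (median 0.21), and 2 rose and 1 fell in siCHD8 (median 0.04). EIF1AX, which helps the small subunit find the start codon, rose by 0.90 and 0.70, whereas EIF2B5, a subunit of the exchange factor of eIF2, fell by 0.68 and 0.62.

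Groups closer to the ribosomal proteins in regulation or in kind were read in the same way. Of 17 other TOP mRNAs of translation, among them EEF1A1, EEF2 and PABPC1, limma called 0 with either siRNA, and 2 in siCt and 1 in siCHD8 passed an unadjusted p of 0.05 (medians 0.09 and -0.08). Of 73 mitochondrial ribosomal proteins, which are encoded by a separate set of nuclear genes, 7 rose in siCt, and 4 rose and 1 fell in siCHD8 (medians 0.09 and 0.02). Among 16 genes of mTORC1 and of TOP mRNA control, LARP1 rose by 0.60 in siCt and 0.40 in siCHD8 and MYC by 0.39 in each, as did DDIT4, an inhibitor of mTORC1, by 0.63 and 0.87. CNBP, which binds TOP mRNAs, rose by 0.82 in siCt, while its change in siCHD8 was 0.07 (adjusted p = 0.861 from limma). The difference between the responses was called for 0 of these 16 genes in limma, so they were not shown to differ. Of 11 genes of RNA polymerase I transcription 1 rose in siCt, and 2 rose and 1 fell in siCHD8, and of 13 chaperones and loading factors of ribosomal proteins 6 and 2 rose. These lists were not tested against the ribosomal proteins as groups.

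**Figure D1:**
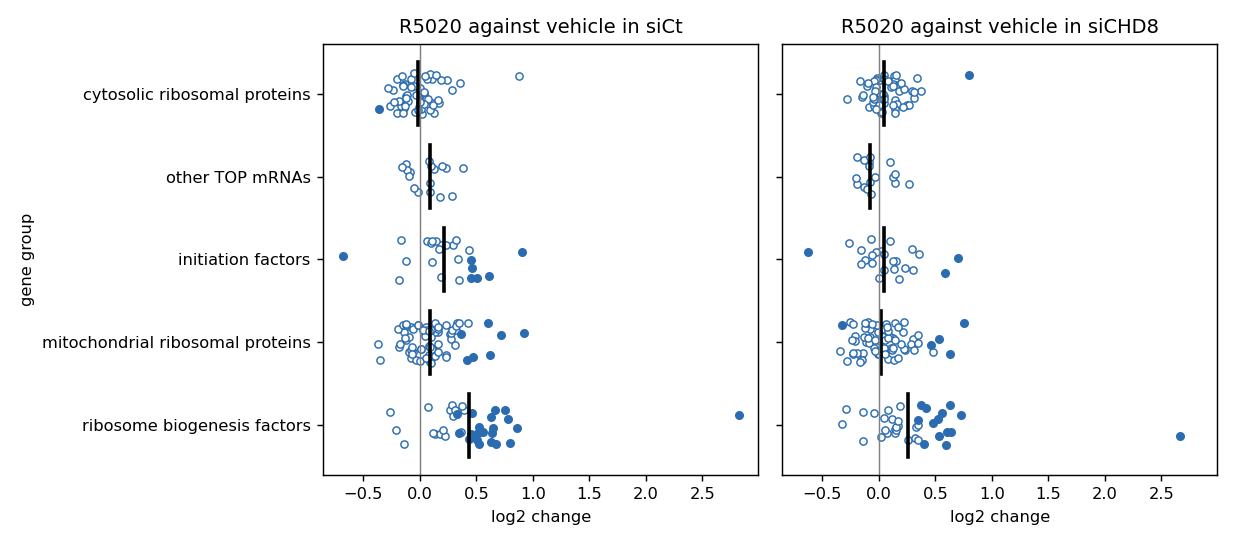
Log2 change with R5020 (x axis) for each gene of 5 groups (y axis) in siCt (left) and siCHD8 (right). Filled points passed an adjusted p of 0.05 in limma, open points did not, and black bars are group medians; the ribosomal proteins have 1 filled point on each side, the biogenesis factors 21 and 14.

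The second comparison asks what the CHD8 siRNA did to the group when no hormone was given. Most ribosomal protein genes read lower in siCHD8 EtOH than in siCt EtOH, by small amounts, and none passed the adjusted test. The difference was below 0 for 49 of the 57 (86.0%, against 51.2% of all probe sets), with a median of -0.22 against -0.01 over all probe sets. It was below 0 for 18 of the 21 small subunit genes (median -0.23) and 31 of the 36 large subunit genes (median -0.17). Other probe sets at least as bright as the lower quartile of the members (1473, at 8.10 or more) had a median of -0.00.

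At an adjusted p under 0.05 limma called 0 members higher and 0 lower, against 0.113% and 0.179% of all probe sets. At an unadjusted p under 0.05, 23 members were lower (40.4%) and 0 higher, where 6.98% and 5.16% of all probe sets were. In 22 members (38.6%) every siCHD8 array lay below every siCt array, and in 0 above, against 8.06% and 5.63% of all probe sets. Without siCt EtOH replicate 3 the median was -0.19 and 49 members were still below 0, but those lower at an unadjusted p under 0.05 were 14 (6.06% of all probe sets). Without siCHD8 EtOH replicate 3 the median was -0.17 and 17 were lower (6.26% of all probe sets). The median deviation of the 57 genes from their own means, array by array, was 0.03, 0.10 and 0.15 in siCt EtOH and -0.01, -0.14 and -0.17 in siCHD8 EtOH. These ranges do not overlap, though the array siCHD8 EtOH replicate 1 lay nearer to the controls than to its fellow replicates.

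**Figure D2:**
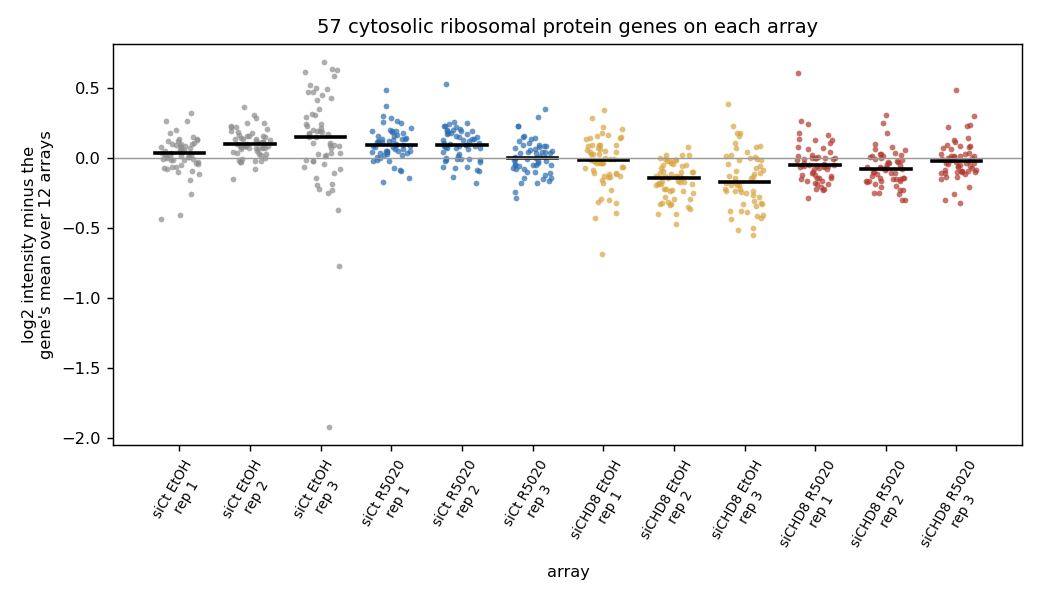
Deviation of each of the 57 ribosomal protein genes from its own mean over the 12 arrays (y axis, log2 intensity) on every array (x axis), with black bars at the medians. The medians lie between 0.00 and 0.15 on the 6 siCt arrays and between -0.17 and -0.01 on the 6 siCHD8 arrays, and the points of siCt EtOH replicate 3 are the most scattered.

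RPL29, a heparin-binding protein of the large subunit, had the lowest difference with all arrays. It read 9.19, 9.30 and 9.67 in siCt EtOH and 8.92, 8.74 and 8.57 in siCHD8 EtOH, without overlap. The difference was -0.65 (SE 0.13, 1.56-fold lower, adjusted p = 0.0541 from limma). Under R5020 the siCt arrays read 9.13, 9.19 and 9.05 and the siCHD8 arrays 8.71, 8.73 and 8.66, again without overlap, a difference of -0.42 (SE 0.13, adjusted p = 0.177). A dimmer second probe set of RPL29 did not share this pattern, with differences of 0.00 with vehicle and 0.47 with R5020. The mean of both probe sets differed by 0.02 with R5020. Without siCt EtOH replicate 3 the difference with vehicle was -0.50.

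RPS27, a zinc-finger protein of the small subunit, read 10.89, 10.995 and 10.65 in siCt EtOH and 9.94, 10.27 and 10.59 in siCHD8 EtOH. The groups are separate but the closest arrays are near each other. Its difference was -0.58 (SE 0.14, adjusted p = 0.111 from limma), and its other probe set gave -0.63. With R5020 RPS27 was at 10.79, 10.74 and 10.78 in siCt and 10.71, 10.64 and 10.56 in siCHD8, a difference of -0.13 (SE 0.14). Without siCHD8 EtOH replicate 1, its lowest array, the difference with vehicle was -0.42. Without siCt EtOH replicate 3 it was -0.68 and without siCHD8 EtOH replicate 3 -0.74, in both cases the lowest of the members. The adjusted p from limma was 0.133 in the first case and 0.0402 in the second, so the call depended on the arrays kept.

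RPL13 and RPL31, both of the large subunit, followed in the order of differences. RPL13 read 8.08, 8.20 and 8.47 in siCt EtOH and 7.81, 7.85 and 7.42 in siCHD8 EtOH, a difference of -0.55 (SE 0.13, adjusted p = 0.108 from limma). Its other probe sets had -0.53 and -0.40. RPL31 read 9.75, 9.95 and 10.38 against 9.63, 9.55 and 9.42, a difference of -0.49 (SE 0.14, adjusted p = 0.155), with -0.53 for its other probe set. In both genes the highest control array was siCt EtOH replicate 3 and the arrays did not overlap. Without it the differences were -0.44 for RPL13 and -0.32 for RPL31.

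RPL35 (-0.43), RPS21 (-0.40), RPS29 (-0.40) and RPS9 (-0.38) came next, with SE of 0.11 to 0.15. Without siCt EtOH replicate 3 these differences were -0.23, -0.24, -0.33 and -0.26. Of these RPS9, a small subunit protein, had a second probe set that went the other way, at 0.59 with vehicle, and that rose by 0.52 with R5020 in siCt (adjusted p = 0.0248 from limma), where the brighter had -0.12. RPL3, a core protein of the large subunit, had -0.35 with arrays of 10.76, 10.83 and 10.72 against 10.32, 10.40 and 10.53. Over all 33 further probe sets of the members, 25 were below 0 with vehicle, with a median of -0.14, and 26 lay on the same side as the brightest of their gene. Of the 33, 1 (RPL41) repeats the values of the brightest and so had to lie on its side.

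RPL5 and RPL11 form, with 5S ribosomal RNA, the particle that binds MDM2 when ribosome assembly fails. Their differences with vehicle were -0.22 (SE 0.11) and -0.34 (SE 0.13), unadjusted p = 0.0695 and 0.021 in limma, and neither passed adjustment. They were -0.14 for RPL5 without siCHD8 EtOH replicate 3 and -0.19 for RPL11 without siCt EtOH replicate 3. The other probe sets of RPL5 went the other way with vehicle, at 0.18 (SE 0.16) and 0.06 (SE 0.12). RPL5 was thus lower with vehicle on its brightest probe set alone. With R5020 its brightest probe set had -0.22, and the others had -0.34 and -0.14. RPS6, the substrate of the S6 kinases, had 0.04 (SE 0.15), and RPS19, the gene most often mutated in Diamond-Blackfan anaemia, -0.17 (SE 0.14), which became -0.01 without siCHD8 EtOH replicate 3. At the upper end stood RPL10 (0.46, SE 0.38), which turned to -0.24 without the stray array named above, RPL7 (0.13), RPL17 (0.11) and RPL30 (0.11), none of them past an unadjusted p of 0.05.

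**Figure D3:**
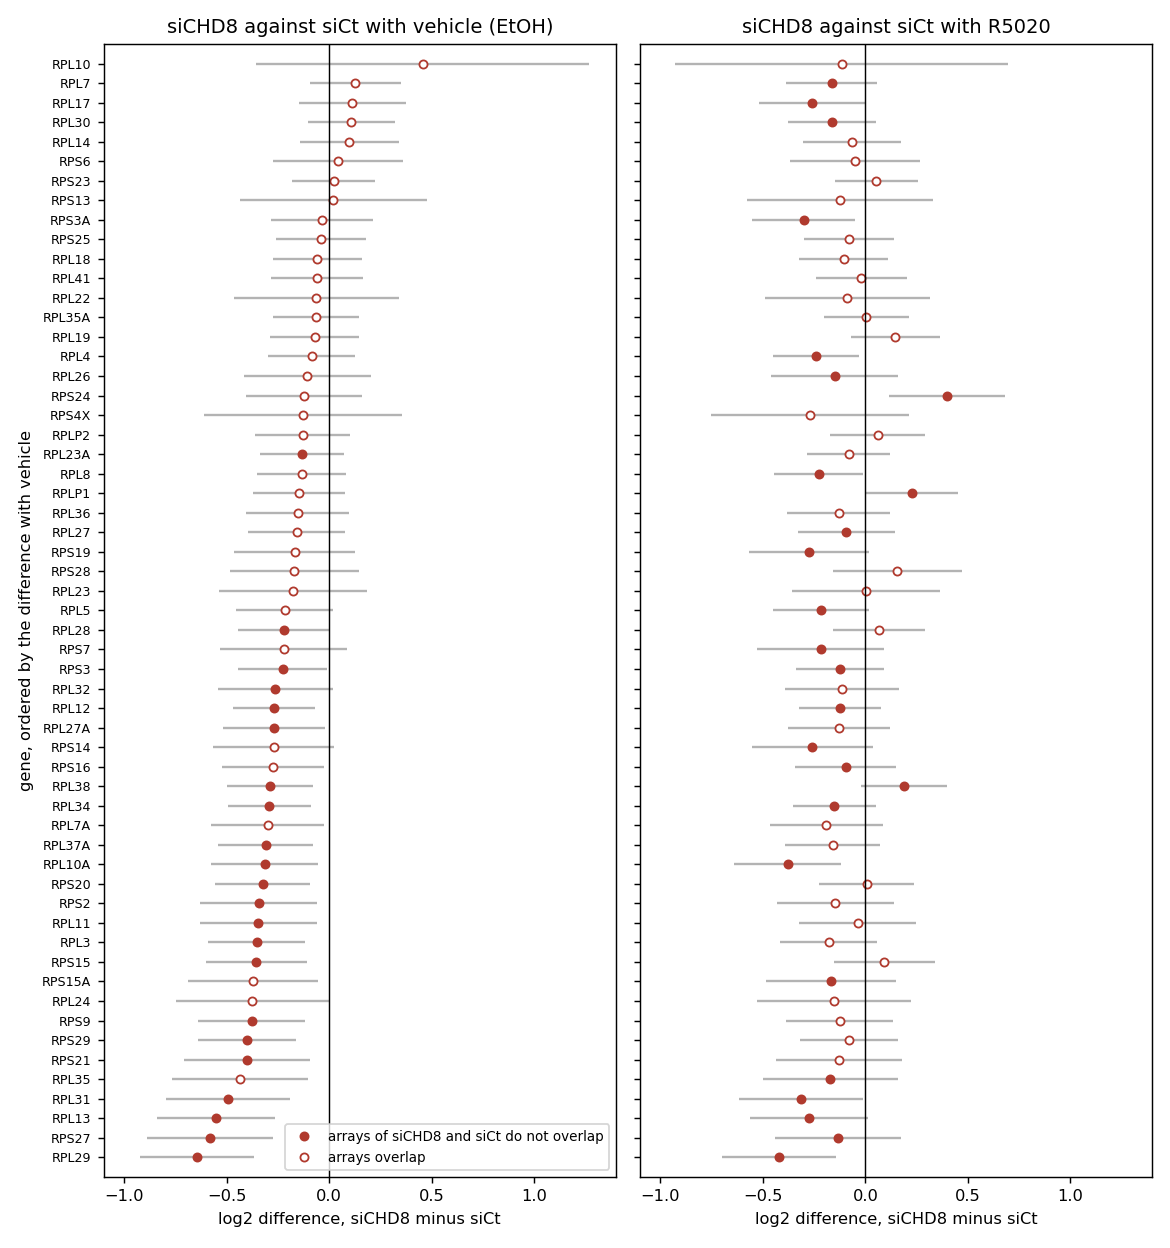
Log2 difference of siCHD8 from siCt (x axis) for the 57 genes (y axis), with vehicle on the left and R5020 on the right; points are limma estimates, bars their 95% intervals, and filled points mark genes whose 3 arrays of each siRNA do not overlap. With vehicle 49 points lie left of 0 and 22 are filled; with R5020 45 lie left and 26 are filled, 3 of them right of 0.

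The third comparison is that of siCHD8 with siCt under R5020, and it used arrays separate from those of the second. The difference was below 0 for 45 of the 57 (78.9%, against 47.8% of all probe sets), with a median of -0.13 against 0.01. Limma called 0 members at an adjusted p under 0.05, against 0.0330% of all probe sets higher and 0.156% lower. At an unadjusted p under 0.05, 6 were lower (10.5%) and 2 higher, against 7.67% and 6.24%. The 6 became 2 without siCHD8 R5020 replicate 2, where 6.55% of all probe sets were lower. They became 9 without siCHD8 EtOH replicate 1, an array that enters only the spread, where 8.71% of all probe sets were lower. In 23 members all siCHD8 arrays lay below all siCt arrays (40.4%) and in 3 above, against 15.3% and 12.3% of all probe sets. The bright probe sets that are no members had a median of -0.06, and 65.6% of them were below 0. So were 82.2% of the mitochondrial ribosomal proteins, 89.2% of the ribosome biogenesis factors and 50% of the 8 paralogs outside the rule.

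RPL10A, a protein of the large subunit, was among the lower genes with both treatments. Its values were 8.56, 8.50 and 8.67 in siCt EtOH against 8.46, 8.33 and 8.002 in siCHD8 EtOH, and 8.69, 8.68 and 8.51 in siCt R5020 against 8.20, 8.20 and 8.34 in siCHD8 R5020. No arrays of the 2 siRNAs overlapped in either pair. The differences were -0.31 (SE 0.12; -0.18 without siCHD8 EtOH replicate 3) and -0.38 (SE 0.12, adjusted p = 0.192 from limma). RPS3A had -0.30 with R5020 and -0.03 with vehicle, and RPL4 -0.24 and -0.09. RPL10A, RPL12, RPL13, RPL29, RPL31, RPL34, RPS27 and RPS3 were lower without overlap with both treatments. In RPL34, a large subunit protein, the arrays of a condition lay close together. It read 10.42, 10.44 and 10.30 in siCt EtOH and 10.16, 10.06 and 10.07 in siCHD8 EtOH, and 10.42, 10.39 and 10.42 in siCt R5020 and 10.28, 10.21 and 10.29 in siCHD8 R5020. Its differences were -0.29 and -0.15 (SE 0.09 each), and neither passed adjustment. The 8 genes are 36.4% of the 22 found with vehicle, while 40.4% of all 57 were lower without overlap with R5020. They are 34.8% of the 23 found with R5020, while 38.6% of all 57 were found with vehicle. Members found with vehicle were thus not found with R5020 more often than the members as a whole. The 8 make up 14.0% of the 57, and 2.57% of all probe sets were lower without overlap with both treatments. In all, 38 members were below 0 in both (66.7%, against 26.3% of all probe sets). With 49 of the 57 below 0 with vehicle and 45 with R5020, an overlap of about this size follows from the counts.

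Members higher in siCHD8 than in siCt under R5020, without overlap, were RPS24 (0.40, SE 0.13), RPLP1 (0.23, SE 0.11) and RPL38 (0.19, SE 0.10). Of these, RPS24 and RPLP1 passed an unadjusted p of 0.05 in limma (0.00929 and 0.0464), and none passed adjustment (0.205, 0.352 and 0.418). RPLP1 and RPLP2 are the acidic proteins of the stalk that recruits translation factors. RPLP1 read 9.82, 9.85 and 9.67 in siCt R5020 and 10.05, 9.98 and 10.00 in siCHD8 R5020, and its other probe set gave 0.19. RPLP2 had 0.06 (SE 0.11).

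The difference between the 2 hormone responses, siCHD8 minus siCt, uses all 12 arrays and is also the difference between the 2 knockdown effects. Over the members its median was 0.14, against 0.01 over all probe sets, with 39 of the 57 above 0. Limma called none at an adjusted p under 0.05 in either direction, as in 0% and 0% of all probe sets. At an unadjusted p under 0.05, 6 members were higher (RPS24, RPL38, RPS15, RPS27, RPLP1 and RPS20) and 1 lower (RPL17), against 4.89% and 4.67%. Without siCt EtOH replicate 3 the median was 0.06, with 6 higher and 0 lower, against 4.27% and 3.92% of all probe sets.

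RPL38, a large subunit protein known for its part in the translation of Hox mRNAs in the mouse embryo, had the lowest p of these. It read 10.07, 10.15 and 10.23 in siCt EtOH and 10.02, 10.03 and 9.86 in siCt R5020. In siCHD8 EtOH it was at 9.92, 9.81 and 9.86, and in siCHD8 R5020 at 10.17, 10.14 and 10.16. The R5020 arrays thus lay below the vehicle arrays in siCt and above them in siCHD8. The changes were -0.18 and 0.29, and their difference was 0.48 (95% interval 0.18 to 0.77), with an adjusted p of 0.490 and an unadjusted p of 0.00372 in limma.

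RPS15, at the head of the small subunit, read 8.77, 8.90 and 8.63 in siCt EtOH and 8.76, 8.64 and 8.58 in siCt R5020, which overlap. In siCHD8 it was at 8.33, 8.32 and 8.57 with vehicle and 8.65, 8.73 and 8.88 with R5020, which do not. Its difference of responses was 0.45 (95% interval 0.10 to 0.80), and that of RPS27 was 0.45 (95% interval 0.01 to 0.88; 0.29 without siCHD8 EtOH replicate 1). Neither passed adjustment. RPL17, on a dim probe set, went the other way at -0.37 (95% interval -0.74 to -0.00).

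**Figure D4:**
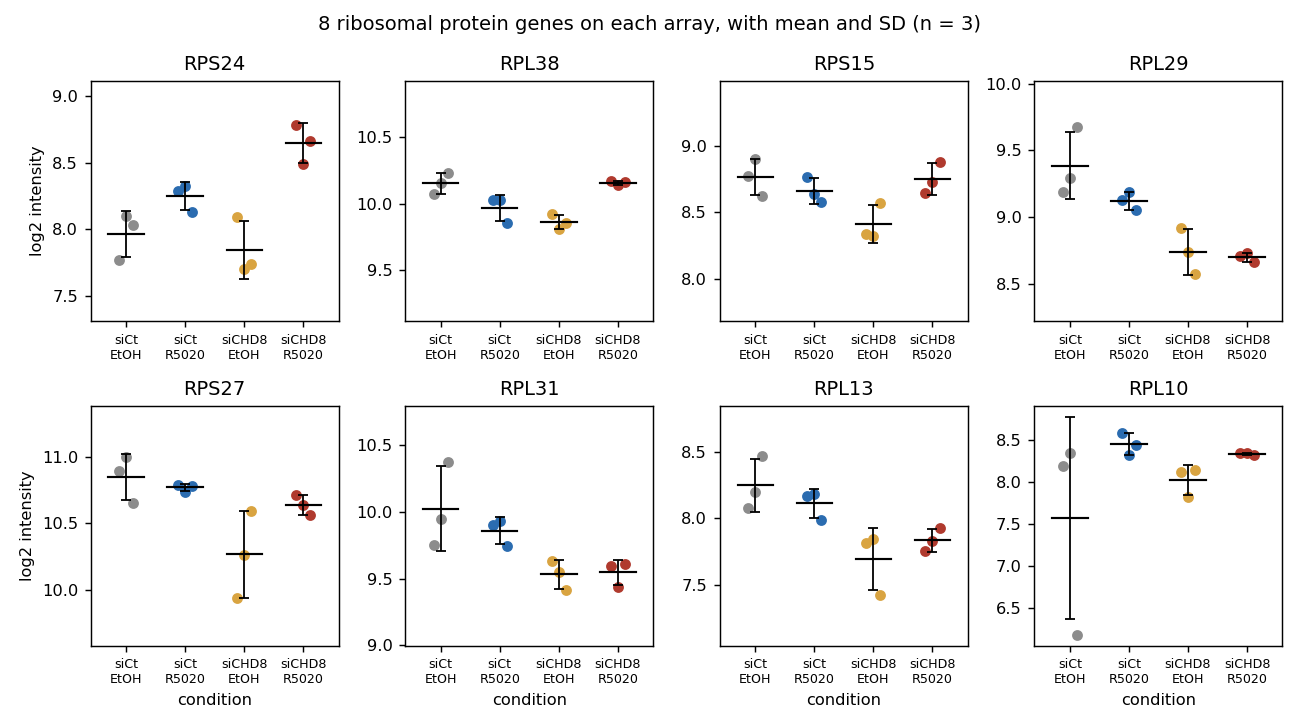
Log2 intensity (y axis) of 8 ribosomal protein genes on the 3 arrays of each condition (x axis), with the mean and SD. RPS24 is highest in siCHD8 R5020, RPL29, RPL31 and RPL13 are lower in siCHD8 than in siCt with either treatment, and RPL10 has 1 siCt EtOH array at 6.18.

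Relatives outside the rule were read for comparison. Of 8 paralogs limma called 0 in each of the 5 comparisons, and at most 1 in a comparison passed an unadjusted p of 0.05. RPL22L1 had the highest change with R5020 among them, 0.54 in siCt and 0.25 in siCHD8 (adjusted p = 0.185 and 0.660 from limma), and the lowest difference between the siRNAs with R5020, -0.45. RPL39L had the lowest with vehicle, -0.53, and -0.36 with R5020. FAU, whose product is a ubiquitin-like fusion to a small subunit protein, had 0.28 and 0.17 with R5020. Among 17 other TOP mRNAs the difference of siCHD8 from siCt with vehicle was below 0 in 8 (median 0.01), and with R5020 in 15 (median -0.18). EEF1A1, the elongation factor that brings tRNA to the ribosome, had 0.03 and -0.13, and PABPC1, the poly(A)-binding protein, -0.36 and -0.28. The ribosome biogenesis factors had medians of -0.05 and -0.20, and the mitochondrial ribosomal proteins -0.07 and -0.13. The members of the cytosolic ribosome thus had the lowest of these medians with vehicle but not with R5020, and no test of that order was made.

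Probe sets that pair a ribosomal protein symbol with other symbols, such as a pseudogene or a read-through gene, hold several genes that were no members. Some carry the symbol of a member, such as RPL10, RPL17, RPL23A, RPL41 or RPS27, and so in part repeat the members. Leaving aside those that add a small nucleolar RNA alone, 36 had values of their own, several of them for 1 gene. Of these, 33 were below 0 with vehicle and 35 with R5020, with medians of -0.15 and -0.14. Of all probe sets 51.2% and 47.8% were below 0, and of the bright ones that are no members 50.6% and 65.6%. RPS10 (with NUDT3) had -0.51 with vehicle, RPL36A -0.45 to -0.50 and RPL39 -0.47 and -0.50. RPS26 had -0.13 on its brightest. These carry the uncertainty of their shared annotation.

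Members with and without a TOP-like tract were set side by side, without a test. Of the 48 genes with a window, the 43 with a tract had median differences of siCHD8 from siCt of -0.22 with vehicle and -0.13 with R5020, and the 5 without had -0.16 and -0.09. For the response to R5020, the group with a tract had medians of -0.00 in siCt and 0.12 in siCHD8, and the group without had -0.11 and -0.04. With 5 genes on one side these are descriptions.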

How the data were processed

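RNA of T47D-MTVL cells was measured on 12 arrays, 3 for each of 4 conditions. Deposited were log2 intensities of probe sets, which the authors obtained by RMA (background correction, quantile normalization and probe summary). Neither versions nor the probe set definition are given in the sources used here. Of 33297 probe sets, 12083 without a symbol were left out and 21214 tested. A gene was given by the brightest of its 1-symbol probe sets. Condition means were fitted with limma 3.58.1 (R 4.3.3), with 5 contrasts and Benjamini-Hochberg adjustment over all tested probe sets. Precision rests on 3 arrays per condition, and p-values measure the spread between these arrays, which may be technical. The fit was tested on simulated data.

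Members and lists were chosen with earlier results of these data known. Named are the 6 highest and 6 lowest members of each contrast, called members, members whose probe sets disagree, relatives, a few fixed members and up to 4 genes of each list; RPS13, RPL3 and those lower with both treatments were singled out after their values were seen. A tract was searched in RefSeq promoter windows. Alternatives were median centring, quantile normalization, filters on dim probe sets, all probe sets, 1 or the mean of a gene's probe sets, array weights, a trended variance, the compared conditions alone, each array left out, other thresholds and a replicate block. Figures were drawn with matplotlib 3.10.9.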

Additional observations from a re-analysis of the deposited data

How the results depend on the processing

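The medians of the members kept their sign for both siRNA comparisons and for the difference of responses under every alternative: -0.287 to -0.165 with vehicle, -0.146 to -0.0728 with R5020 and 0.0557 to 0.163 for the difference; with 1 array left out they ran from -0.287 (without siCHD8 EtOH replicate 1) to -0.165 and from 0.0557 (without siCt EtOH replicate 3) to 0.163. The medians with R5020 ran from -0.0768 to 0.039 in siCt, changing sign, and from 0.0014 to 0.104 in siCHD8. RPS24 was called in siCHD8 with R5020 under all 27 alternatives (0.73 to 0.92, adjusted p 0.000102 to 0.00607 in limma). The fall of RPS29 was lost in 16 of 25, and the count of members that fell in siCt was 0 with all probe sets, the compared conditions alone, median centring, a replicate block, adjusted p under 0.01 with a fold over 1.5, siCt EtOH 3 and siCHD8 EtOH 1 both left out, and dim members left out, and 0 to 1 with 1 array left out; members that rose in siCt were then 0 to 1. Members that rose in siCHD8 were 3 with array weights, dim probe sets left out or a trended variance, 2 with median centring, probe sets shared with small nucleolar RNAs or both arrays left out, and 1 to 4 with 1 array left out. Members lower in siCHD8 with vehicle were 3 (RPL29, RPS27 and RPL13) with dim probe sets left out or a trended variance, 1 (RPL29) with 1 probe set per gene or quantile normalization, and 0 to 1 with 1 array left out; with R5020 they were 2 with array weights and 1 with both arrays left out. At an unadjusted p under 0.05 the counts were 1 higher and 3 lower in siCt (0 to 4 and 1 to 5 with 1 array left out), 6 and 1 in siCHD8 (3 to 8 and 0 to 2), 6 and 1 for the difference (3 to 6 and 0 to 2), 23 lower with vehicle (14 to 28), and 2 higher and 6 lower with R5020 (1 to 2 and 2 to 9). With all arrays the shares of all probe sets were, in that order, 13.3% and 14.6%, 10.9% and 11.5%, 4.89% and 4.67%, 6.98%, and 6.24% and 7.67%. These shares moved too when an array was left out. Lower with vehicle were 6.06% of all probe sets at the 14 and 8.08% at the 28. Lower with R5020 were 6.55% at the 2 and 8.71% at the 9. With the mean of its probe sets, RPL29 reversed with R5020, to 0.0216. The cause of these changes was not tested. Same-numbered arrays of different conditions did not deviate together (r -0.247 to 0.196, above 0.1 in 4 of 18 pairs). The labels do not say whether same-numbered arrays were prepared together, and these correlations cannot decide it. The paired fit with a replicate block lost the call of RPS29 (0 members lower in siCt) and changed no other count of calls.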

Other observations

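Several probe sets pair a ribosomal protein gene with a small nucleolar RNA (snoRNA), an RNA that guides the modification of ribosomal RNA and is often cut from an intron of such a gene. They were looked at after the data were seen and are no members. Of 9, 4 rose with R5020 in siCHD8 and 0 in siCt: 2 of SNORA70 with RPL10 (1.17 and 1.19), SNORD24 with RPL7A (1.91) and SNORD68 with RPL13 (1.504). In siCt these had changes of 0.14, 0.20, 0.11 and 0.02. Of 198 probe sets of a snoRNA alone, 20 rose in siCHD8 and 3 in siCt, and none fell, where 6.04% and 8.10% of all probe sets rose. The array siCHD8 EtOH replicate 1 was the lowest of the 12 for all 4, for example SNORD24 with RPL7A (4.53) and SNORD68 with RPL13 (5.23). Without it the rises in siCHD8 were 0.90 and 0.93 for SNORA70 with RPL10, 1.22 for SNORD24 with RPL7A (adjusted p = 0.0879 from limma) and 0.89 for SNORD68 with RPL13, and 3 of the 9 and 12 of the 198 were called, against 6.30% of all probe sets. The difference between the responses was called for 0 of the 9 and 0 of the 198 in limma. RPL7A and RPL13 themselves had changes of -0.04 and 0.14 with R5020 in siCHD8.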
